A study of Rattus norvegicus with 9 samples.

Results

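The circadian clock genes Bhlhe40, Nr1d1, Nr1d2, Per1, Per2, Cry1, Cry2, Dbp, Arntl and Clock were followed by RNA-seq in RBL-2H3, a line of rat basophilic leukemia cells that stands in for mast cells (MCs). These 10 genes, of 18006 with values, were matched by symbol. Bhlhe40 and Nr1d1 were chosen by their falls in the PF samples, so their PF values are a description and carry no test, while the other 8 genes were taken for their place in the clock. The 9 samples formed 3 groups of 3. The control samples (Ctrl) were labelled untreated. The DNP samples, labelled IgE/DNP, were sensitized with 50 ng/mL of anti-DNP IgE over 12 h and then given 100 ng/mL of the antigen DNP-HSA, which crosslinks the receptor-bound IgE. The PF samples, labelled PF1, had the same sensitization and antigen and, between them, 1 h of pretreatment with PF. What PF is cannot be read from the labels or the paper, which leaves this group out. Antigen was given for 4 h by the protocol field of all samples, whereas the PF samples' own field gives 4 h, 5 h and 6 h for replicates 1, 2 and 3. That protocol field stands beside the Ctrl samples as well, so that it is unclear whether these had IgE. No group had PF without antigen, and the clock time of collection is not given, so treatment and time of collection cannot be told apart. The labels do not say whether replicates were separate cultures, and p-values then measure only the spread between these samples, which may be technical.

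The circadian clock is a feedback loop of transcription found in most mammalian cells. CLOCK and BMAL1, the product of Arntl, bind E-boxes and activate Per, Cry, Nr1d1, Nr1d2, Dbp and Bhlhe40, and the PER and CRY proteins return to repress CLOCK and BMAL1. The nuclear receptors REV-ERBα (Nr1d1) and REV-ERBβ (Nr1d2) repress Arntl through ROR response elements, DBP activates genes through D-boxes, and BHLHE40 (DEC1) competes at E-boxes as a repressor. In MCs the clock is known for daily variation in the response to IgE and antigen. Per1 and Per2 can also be induced outside the loop, through CREB at cAMP response elements (CREs).

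The elements named above were searched on both strands in the 250 bases before each annotated start, taken from RefSeq on the GRCr8 build, a later assembly than the rn6 that the submitters' processing notes name. Of the 10 genes, 9 had 11 such windows, among 33469 windows of all genes, and Cry1 had none. The E-box was in 2 of the 11 windows, those of Bhlhe40 and of the second start of Nr1d1, and in 5.59% of all windows. The D-box was in 1 of them, that of Per2, against 0.932% of all windows, and the ROR response element in 1, that of Arntl, against 0.317%. The CRE (TGACGTCA, 1.59% of all windows) and the AP-1 element (TGANTCA, 6.34%) were in none of the 11. The windows that hold an element are shown with the element in capitals (E-box CACGTG, D-box TTACGTAA or TTATGTAA, and the longer ROR response element). A match is only a match of letters. The windows of Arntl, Per2 and the second start of Nr1d1 lie partly or wholly within the span of their gene. The window of Bhlhe40 (chr4:143174200-143174449, plus strand) is given whole, and for the others the 30 bases around the element are given, for Nr1d1 chr10:84229628-84229657 (minus strand), for Arntl chr1:176766298-176766327 (plus strand) and for Per2 chr9:99497167-99497196 (minus strand).
Bhlhe40: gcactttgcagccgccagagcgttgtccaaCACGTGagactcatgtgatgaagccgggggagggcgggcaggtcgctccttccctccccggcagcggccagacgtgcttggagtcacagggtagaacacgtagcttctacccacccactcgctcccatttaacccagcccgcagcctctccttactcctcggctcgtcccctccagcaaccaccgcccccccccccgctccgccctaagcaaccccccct
Nr1d1, second start: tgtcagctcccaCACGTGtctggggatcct
Arntl: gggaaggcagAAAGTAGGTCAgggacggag
Per2: ccatgtgcgtcTTATGTAAagagagcgacg

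Values are fragments per length of transcript and per total of mapped fragments (FPKM), summing to 573023 to 591539 in the Ctrl and DNP samples and to 610206 to 630069 in the PF samples. The number of reads is unknown, so the precision of each value rests on 3 samples per group. All 7 MC or basophil markers were expressed, from 52.96 to 824.44 FPKM. Their sums were 2541 to 2573 in Ctrl, 2429 to 2453 in DNP and 2561 to 2590 in PF. Within these sums single markers moved both ways. Gata2 stood at 386.15 to 396.22 in Ctrl and 293.2 to 295.05 in PF, and Kit and Cpa3 were also lower in PF. Fcer1g stood at 701.95 to 728.91 in Ctrl and 785.64 to 824.44 in PF. Fcer1a and Ms4a2 were also higher there, and Hdc overlapped. Of T cell markers Cd3e stood at 6.74 to 9.52 FPKM and Cd4 and Cd8a at no more than 0.16, and those of B cells, macrophages, fibroblasts and epithelium with values did not exceed 1.10. The labels name peripheral blood as the tissue of this line. As a check of stimulation, the immediate early gene Egr1 averaged 3.65 ± 0.329 FPKM in Ctrl, 169 ± 9.59 in DNP and 226 ± 10.7 in PF (SD, n = 3). The cytokine gene Il4 averaged 2.33 ± 0.118 in Ctrl, 12.3 ± 0.514 in DNP and 3.49 ± 0.856 in PF. In bulk samples, fewer cells with a transcript and less of it per cell cannot be told apart.

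Clock genes differed widely in level per length of transcript. In Ctrl samples Bhlhe40 was highest at 181 ± 3.71 FPKM (SD, n = 3), followed by Nr1d1 at 47.1 ± 1.72, Per1 at 30.6 ± 1.73, Cry2 at 19.4 ± 0.555 and Nr1d2 at 17.7 ± 0.630. Clock at 8.82 ± 0.727, Dbp at 5.64 ± 0.713, Cry1 at 3.70 ± 0.508, Arntl at 3.25 ± 0.218 and Per2 at 0.390 ± 0.0436 came after them. The repressor genes thus stood above both genes of the activating pair, apart from Cry1 and Per2. Neighbours in this order had ranges that did not overlap except Cry1 and Arntl. DNP samples kept the order, there with overlap of Cry2 and Nr1d2. In PF samples Clock stood above Nr1d2, and Nr1d2 and Dbp overlapped.

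**Figure D1:**
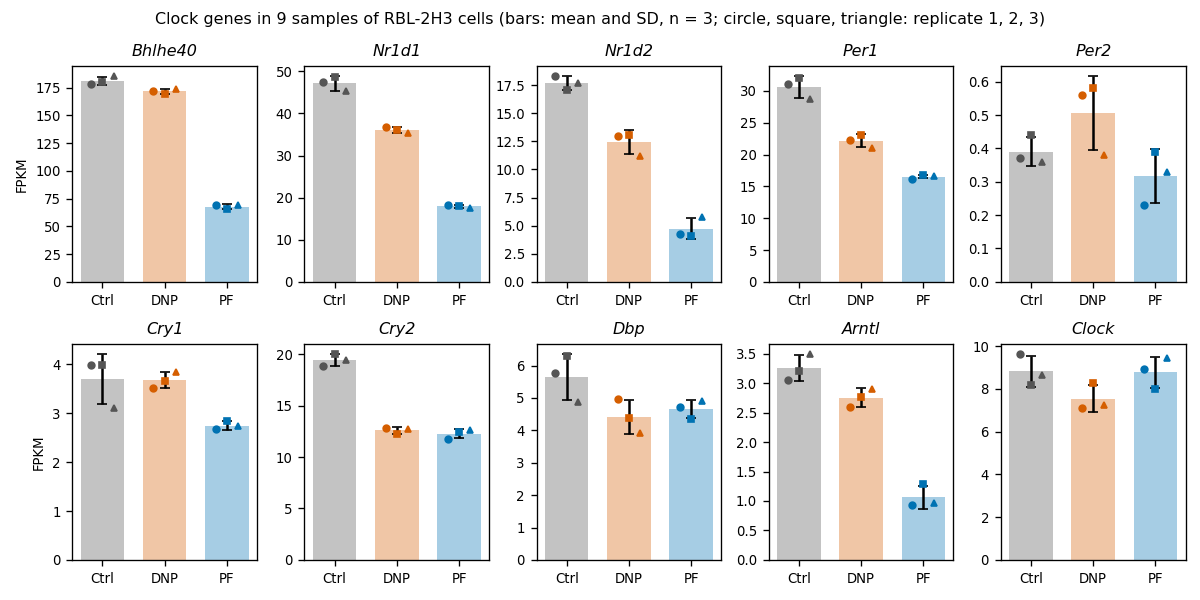
FPKM (y axes, each from 0 on its own scale) of the 10 clock genes in the Ctrl, DNP and PF samples. Bars are means, error bars the SD of 3 samples and points the single samples. The PF samples lie far below the other groups for Bhlhe40, Nr1d1, Nr1d2 and Arntl, while Clock averages 8.82 FPKM in Ctrl and 8.78 in PF.

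The comparison of DNP with Ctrl asked how the clock genes stood after antigen. A set of 4 genes fell, namely Cry2, Nr1d2, Per1 and Nr1d1, all genes of repressors, to between 64.7% and 76.4% of their Ctrl means. None of the 10 was called higher. Genes were tested with limma on log2(FPKM + 1), with Benjamini-Hochberg adjustment over the genes that reached 1 FPKM in 3 or more of the 6 samples, and called at an adjusted p up to 0.05, and fold changes on this scale understate those of low genes. Of 10392 genes tested, 14.7% were called higher and 14.4% lower. Among the clock genes 9 passed the filter, of which 4 were called lower and 5 were not called. At an unadjusted p under 0.05 the limma test gave 0 higher and 8 lower. No share of all genes is given for that threshold, so these counts are not a result about the clock genes. The 9 genes had a median log2 fold change of -0.29, against -0.01 over all genes.

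Cry2, a repressor of CLOCK and BMAL1, read 18.88, 19.99 and 19.45 FPKM in the Ctrl samples and 12.8, 12.2 and 12.8 in the DNP samples. Its DNP samples all lay below its Ctrl samples, with a log2 fold change of -0.59 (SE 0.0468, limma adjusted p = 1.32e-04). Its partner Cry1 read 3.99, 3.99 and 3.11 in Ctrl and 3.52, 3.65 and 3.85 in DNP. The Cry1 groups overlapped, and the difference was not detectable, with a 95% interval of -0.22 to 0.21. Among the Per genes, Per1, the member that responds quickly to outside signals in many tissues, read 31.0, 32.0 and 28.7 in Ctrl and 22.2, 23.1 and 21.1 in DNP. All DNP values of Per1 were lower, with a log2 fold change of -0.45 (SE 0.0543, limma adjusted p = 8.57e-04). Per2 was below the filter in all comparisons, at 0.37, 0.44 and 0.36 in Ctrl, 0.56, 0.58 and 0.38 in DNP and 0.23, 0.39 and 0.33 in PF. Its 3 groups overlapped.

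Both REV-ERB genes fell after antigen. Nr1d1 read 47.4, 48.7 and 45.3 FPKM in Ctrl and 36.7, 36.1 and 35.3 in DNP, a log2 fold change of -0.38 (SE 0.0400, limma adjusted p = 4.72e-04). Nr1d2 read 18.30, 17.04 and 17.68 in Ctrl and 12.99, 13.10 and 11.21 in DNP, a log2 fold change of -0.48 (SE 0.0660, limma adjusted p = 0.00151). In neither gene did a DNP sample reach the lowest Ctrl sample. In the RefSeq annotation Nr1d1 overlaps the neighbouring gene Thra, and the strand setting of the counting is not given in the sources used here, so that their reads may not be separated. Thra averaged 1.23 FPKM in Ctrl, 1.02 in DNP and 0.920 in PF. The same doubt holds for Cry1, which overlaps another protein-coding gene, and for Clock, Per2 and Cry2, which overlap lncRNA genes, all by longer stretches. The values of these overlapping genes were not analysed here.

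The other genes were not called in DNP. Bhlhe40 read 178, 180 and 185 FPKM in Ctrl and 172, 169 and 174 in DNP. These values did not overlap, but the log2 fold change was small at -0.08 (limma adjusted p = 0.0906, 95% interval -0.148 to -0.00783). Clock stood at -0.20 on the log2 scale (limma adjusted p = 0.0899), Arntl at -0.18 (0.121) and Dbp, the D-box activator, at -0.29 (0.0669). Without Ctrl replicate 3, which had the lowest Dbp value of its group, Dbp passed the threshold (limma adjusted p = 0.0276).

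The PF samples were compared with DNP, which differs from them by PF and, for replicates 2 and 3, by the labelled time, and with Ctrl. All 3 comparisons share samples, so they are not independent. Bhlhe40 stood at 68.8, 65.5 and 69.1 FPKM in PF, far below all DNP and Ctrl samples. Its DNP mean was 2.53 times and its Ctrl mean 2.67 times the PF mean, with log2 fold changes of -1.33 and -1.41. For Nr1d1 the PF samples stood at 18.3, 17.9 and 17.6 FPKM. The DNP mean of Nr1d1 was 2.01 times and the Ctrl mean 2.63 times the PF mean, with log2 fold changes of -0.97 and -1.34. These differences chose both genes and are given without a test. Bhlhe40 stood at 94.7% of its Ctrl mean in DNP and at 37.4% in PF, and Nr1d1 at 76.4% and 38.1%. DNP and PF are separate groups of samples, so these are levels and not steps of a time course. Leaving out any 1 of the 6 samples, the log2 fold change between PF and DNP lay from -1.34 to -1.30 for Bhlhe40 and from -0.98 to -0.95 for Nr1d1. Scaling moved it further, for Bhlhe40 to -1.27 by median ratios and -1.43 by the mean of the sums. For Nr1d1 it gave -0.91 and -1.06. These ranges describe the same falls that chose the 2 genes, so they lend them no support. BHLHE40 has also been studied as a regulator of cytokine genes in lymphocytes.

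Among the other 8 genes, Nr1d2, Arntl, Per1 and Cry1 fell in PF against DNP, and none was called higher. Of 10329 genes tested in this comparison 18.1% were called higher and 30.7% lower. Of the 8 genes 7 passed the filter, 4 of them were lower and 3 not called. Arntl, among the 4, passed the filter through the DNP samples, where it is high. At an unadjusted p under 0.05 the limma test gave 1 higher, which was Clock, and 4 lower. Again no share of all genes is given, and these counts cannot be set against other genes. By adjusted p, 1870 of all genes were higher and 3172 lower. This balance moved with scaling, to 2758 and 2600 with samples scaled by median ratios and to 869 and 4302 when scaled to the mean of their sums. The median log2 fold change of all genes went with it from -0.04 to 0.02 and -0.13. The 4 calls held under both scalings, that of Arntl with the limit of its filter. With 1 FPKM required in every sample Arntl was not tested, and the other 3 genes stayed called.

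Nr1d2, the paralog of Nr1d1, had the largest log2 fold change of the tested clock genes. It stood at 4.25, 4.12 and 5.78 FPKM in PF, against 11.21 to 13.10 in DNP and 17.04 to 18.30 in Ctrl, so the 3 groups did not overlap. The log2 fold change was -1.24 against DNP (SE 0.112, limma adjusted p = 3.43e-05) and -1.72 against Ctrl (SE 0.105, limma adjusted p = 4.69e-06). PF samples kept 26.7% of the Ctrl mean.

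Arntl, the gene of BMAL1 and the best known target of REV-ERB repression, was also lower. It read 3.06, 3.21 and 3.49 FPKM in Ctrl, 2.59, 2.77 and 2.90 in DNP and 0.93, 1.29 and 0.97 in PF. All PF samples lay below all others, and the log2 fold change was -0.87 against DNP (SE 0.0970) and -1.05 against Ctrl (SE 0.0968). Since only 1 PF sample reached 1 FPKM, Arntl passed the filter only through the group where it is high. Its p with the filter is therefore not given, and it stands in the counts of calls with that limit. With no filter its limma adjusted p was 0.00105 against DNP and 4.02e-04 against Ctrl. These fold changes understate the ratio of means, 2.59 between DNP and PF. Clock, whose protein pairs with BMAL1, read 9.62, 8.20 and 8.64 in Ctrl, 7.11, 8.28 and 7.23 in DNP and 8.91, 8 and 9.43 in PF. Its groups overlapped, and its log2 fold change was 0.20 against DNP (limma adjusted p = 0.0684, 95% interval 0.0161 to 0.375) and -0.01 against Ctrl (95% interval -0.187 to 0.176). Clock passed the threshold against DNP with scaling by median ratios (limma adjusted p = 0.0212), without DNP replicate 2 (0.0340) and without PF replicate 2 (0.0339).

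Per1 stood at 16.2, 16.8 and 16.6 FPKM in PF, below all DNP samples, which in turn lay below all Ctrl samples. The log2 fold change was -0.40 against DNP (SE 0.0478, limma adjusted p = 1.78e-04) and -0.85 against Ctrl (SE 0.0523, limma adjusted p = 4.99e-06). Cry1 stood at 2.67, 2.84 and 2.73 in PF, again below every sample of the other groups. Its log2 fold change was -0.32 against DNP (SE 0.0725, limma adjusted p = 0.00616). Cry2 showed another pattern, with 11.8, 12.4 and 12.6 FPKM in PF, overlapping DNP. Its log2 fold change against DNP was -0.03 (limma adjusted p = 0.619, 95% interval -0.151 to 0.0838). Dbp stood at 4.73, 4.35 and 4.91 FPKM in PF against 4.97, 4.38 and 3.92 in DNP and 5.76, 6.28 and 4.87 in Ctrl, and its log2 fold change against DNP was 0.07 (limma adjusted p = 0.566, 95% interval -0.133 to 0.265).

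Against Ctrl, 5 of the 7 genes that passed the filter fell in PF, and 0 were called higher. Arntl, among the 5, passed the filter through the Ctrl samples, where it is high. At an unadjusted p under 0.05 the limma test gave 0 higher and 6 lower. With no share of all genes given for that threshold, these counts cannot be set against other genes either. Of 10361 genes tested, 23.1% were called higher and 34.6% lower. These were 2389 and 3586 genes, and 3142 and 3012 with scaling by median ratios or 1575 and 4316 when scaled to the mean sum. Beside Nr1d2, Arntl and Per1, Cry2 fell by 0.62 on the log2 scale (SE 0.0514, limma adjusted p = 2.21e-05) and Cry1 by 0.32 (SE 0.0942, limma adjusted p = 0.0179). The Cry1 call was lost without Ctrl replicate 1 or without Ctrl replicate 2 (limma adjusted p = 0.0641 each) and without PF replicate 1 (0.0530). Dbp was not called (limma adjusted p = 0.0640), but passed without Ctrl replicate 3 (0.0153).

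**Figure D2:**
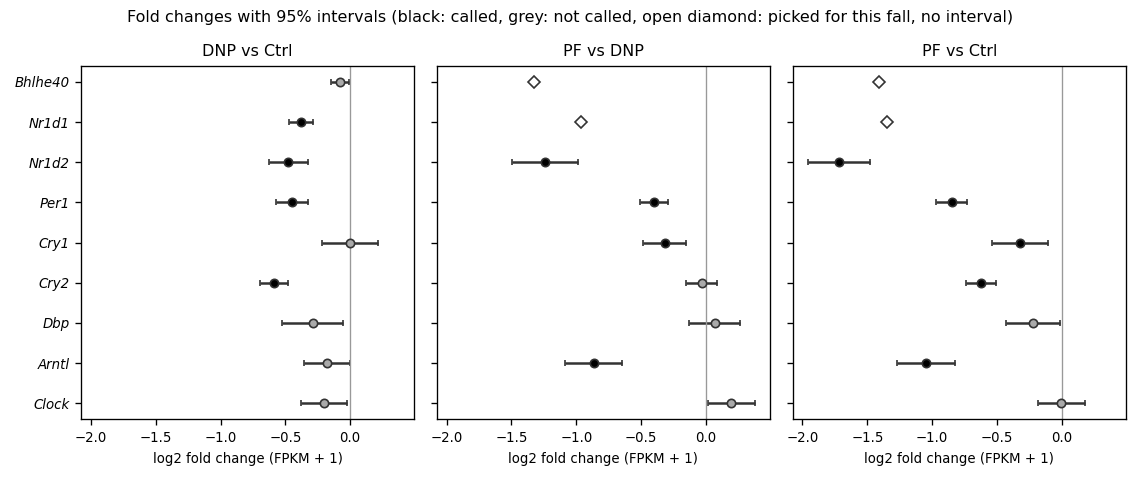
Log2 fold changes of FPKM + 1 (x axes) for 9 clock genes in the 3 comparisons. Black circles are called (limma adjusted p up to 0.05), grey circles are not called and bars are 95% intervals, while open diamonds mark Bhlhe40 and Nr1d1, which were picked for these falls. Per2 is below the filter and not drawn. In both PF comparisons Arntl passed the filter through the other group. Nr1d2 has the lowest value against Ctrl in PF, at -1.72, and Clock lies close to 0 there.

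The longer labelled stimulation of PF replicates 2 and 3 could bear on these values, and its part in them was not tested. The sample labelled 4 h in both fields was therefore also set alone against the mean of each other group, as a value with no test. Its difference from DNP on the log2 scale was -1.31 for Bhlhe40, -0.94 for Nr1d1, -1.35 for Nr1d2, -0.96 for Arntl, -0.43 for Per1 and -0.35 for Cry1. Over all 3 PF samples these differences were -1.33, -0.97, -1.24, -0.87, -0.40 and -0.32, in the same order. Clock stood at 0.22 in that sample and 0.20 over all 3, and Dbp at 0.08 and 0.07. Cry2 stood at -0.09 and -0.03, a shift larger than its SD within groups. A single sample cannot separate labelled time from the spread between samples. The sample labelled 6 h had the highest Nr1d2 value of the PF samples and the sample labelled 5 h the highest Arntl value.

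Ratios within a sample do not depend on its scaling, and those of related genes are given as a description. The ratio of Clock to Arntl averaged 2.73 ± 0.365 in Ctrl, 2.74 ± 0.248 in DNP and 8.50 ± 1.99 in PF (SD, n = 3). The lowest PF sample had 6.20 and the highest sample of the other groups 3.14, so the 2 genes of the activating pair stood in another proportion in PF than in the other groups. For Nr1d1 to Nr1d2 the ratio was 2.67 ± 0.164 in Ctrl, 2.91 ± 0.208 in DNP and 3.90 ± 0.744 in PF, and PF replicate 3, at 3.04, lay within the range of the DNP samples. Cry2 to Cry1 gave 5.33 ± 0.811 in Ctrl, 3.43 ± 0.175 in DNP and 4.47 ± 0.138 in PF. Here the 3 groups did not overlap, with PF between the others.

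**Figure D3:**
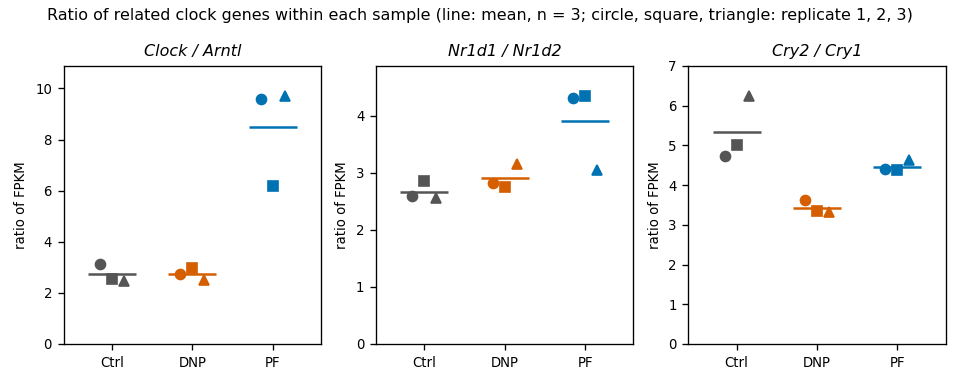
Ratio of the FPKM of 2 related clock genes (y axes, from 0) in each Ctrl, DNP and PF sample. Points are samples and lines the means of 3. The Clock to Arntl ratio lies from 6.20 to 9.72 in PF, above all other samples, and PF replicate 3 has the lowest Nr1d1 to Nr1d2 ratio of its group.

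The rest of the clock network was a list of 39 further genes, of which 36 had values. Arntl2 and Bhlhe41 were among those with none, and Npas2, Rora, Rorb, Hlf and Sik1 were below the filter throughout. Thus REV-ERB genes were expressed in these cells while Rora and Rorb, whose products activate through the same elements, stood at no more than 0.08 FPKM, and so did Npas2, a substitute for Clock. Of the 31 genes past the filter in DNP against Ctrl, 7 were higher and 8 lower, beside 14.7% and 14.4% of all genes. In PF against DNP 5 of 31 were higher and 14 lower, Per3 and Usp2 included, beside 18.1% and 30.7%. For PF against Ctrl these were 7 and 15 of 30, Per3 included, beside 23.1% and 34.6%. Per3 in both PF comparisons, and Usp2 against DNP, passed the filter only through the group where they are high. Both counts of lower genes carry that limit. The shares of higher genes in both PF comparisons were near those of all genes. The median log2 fold change of the list in DNP against Ctrl was 0.04.

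Per3 and Ciart (CHRONO), both repressors of the loop, were lower in DNP. Per3, at 2.49 ± 0.213 FPKM in Ctrl, 1.68 ± 0.270 in DNP and 0.907 ± 0.179 in PF, had a log2 fold change of -0.39 in DNP against Ctrl (limma adjusted p = 0.0234). In PF against DNP it stood at -0.49. There 1 PF sample reached 1 FPKM and the gene passed the filter through the DNP samples, so no test is given. Ciart had the lowest fold change of the network in DNP, -1.10 (SE 0.0729, limma adjusted p = 5.61e-05), with 16.1, 19.0 and 17.1 FPKM in Ctrl and 8.19, 7.30 and 7.32 in DNP. In PF it stood at 8.54, 8.87 and 7.62, overlapping DNP (limma adjusted p = 0.214). Ciart and Cry2 thus both stood lower in DNP and PF than in Ctrl, with no call between DNP and PF. Cipc, an inhibitor of CLOCK, averaged 12.9 ± 0.179 FPKM in Ctrl, 12.9 ± 0.767 in DNP and 6.00 ± 0.187 in PF. It fell in PF against DNP by 0.99 on the log2 scale (SE 0.0619, limma adjusted p = 4.09e-06).

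Noct, Nfil3, Wee1 and Creb1 were called higher in DNP than in Ctrl and lower in PF than in DNP, comparisons that share the DNP samples. Noct (Nocturnin), a clock output, averaged 11.7 ± 0.463 FPKM in Ctrl, 18.6 ± 0.772 in DNP and 12.1 ± 0.432 in PF. It rose by 0.62 on the log2 scale in DNP (limma adjusted p = 1.69e-04), and PF was not called against Ctrl (0.615). Nfil3 (E4BP4), a repressor at D-boxes that opposes DBP, had log2 fold changes of 0.40 in DNP (limma adjusted p = 4.01e-04) and of -0.89 in PF against DNP (1.02e-06). In Wee1, a cell cycle kinase under clock control, they were 0.39 and -0.79, and for Creb1, the gene of CREB, 0.49 and -0.71. These 3 genes averaged less in PF than in Ctrl as well, with log2 fold changes of -0.49 for Nfil3, -0.40 for Wee1 and -0.22 for Creb1, all called.

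Of 9 genes that act on PER and CRY stability, 4 were lower and 1 higher in DNP against Ctrl, beside 14.4% and 14.7% of all genes. In PF against DNP 4 were lower, Usp2 included, and 2 higher, beside 30.7% and 18.1% of all genes. The higher ones, named after their values were seen, were Fbxw11 in DNP (log2 fold change 0.36) and Csnk1d (0.16) and Ppp1cb (0.18) in PF against DNP. Fbxl21, an F-box protein for CRY, was lower in DNP (-0.69, limma adjusted p = 5.99e-04) and lower again in PF against DNP (-0.48, limma adjusted p = 0.00182). Csnk1e, the kinase CK1ε of the PER proteins, had log2 fold changes of -0.36 in DNP against Ctrl (limma adjusted p = 0.0191) and -0.51 in PF against Ctrl (1.27e-04), and was not called between PF and DNP (0.185). The deubiquitinase gene Usp2 averaged 1.61 ± 0.165 FPKM in DNP and 0.390 ± 0.0300 in PF, or -0.91 on the log2 scale. It passed the filter there through the DNP samples alone, so no test is given, and was below it in PF against Ctrl.

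**Figure D4:**
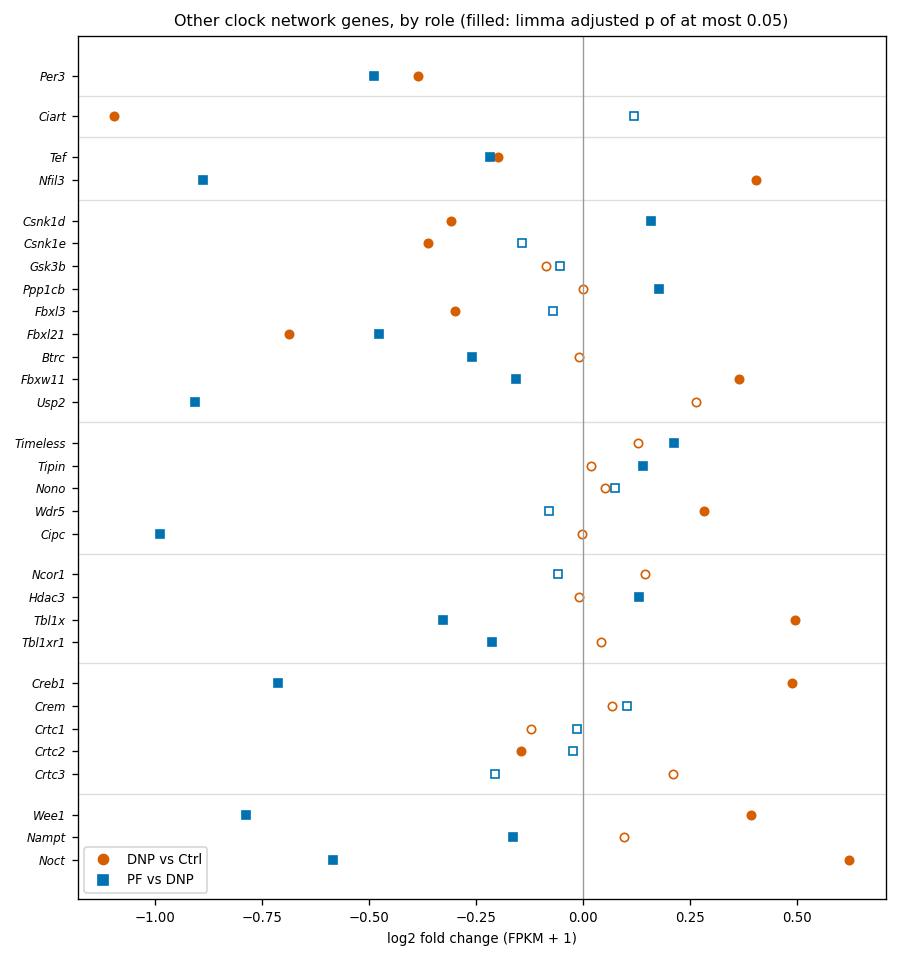
Log2 fold changes of FPKM + 1 (x axis) of 30 further clock network genes, grouped by role and separated by lines, in DNP against Ctrl (circles) and PF against DNP (squares). Filled symbols have a limma adjusted p up to 0.05, and in PF against DNP Usp2 and Per3 passed the filter through the DNP samples. Ciart has the lowest value in DNP against Ctrl, at -1.10, and Cipc the lowest in PF against DNP, at -0.99.

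The genes most like Bhlhe40 and Nr1d1 over the 9 samples were sought among 10542 genes by the root-mean-square difference of log2(FPKM + 1), each gene set to its mean in Ctrl. Nearest to Bhlhe40 were the zinc finger genes Zfp458 (difference 0.0684) and Zfp46 (0.0795) and the small GTPase gene Rhoq (0.0847). Zfp458 averaged 12.9 FPKM in Ctrl, 12.5 in DNP and 4.14 in PF. Nearest to Nr1d1 were Igf2bp2 (0.0716), which encodes an RNA-binding protein, Csf2rb (0.0723), which encodes the β chain shared by the receptors for IL-3, IL-5 and GM-CSF, and the olfactory receptor gene Olr1748 (0.0773). Csf2rb averaged 341 FPKM in Ctrl, 255 in DNP and 143 in PF. No clock gene was among these neighbours. The difference of Bhlhe40 from Nr1d1 was 0.183.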

How the data were processed

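RNA-seq values of 9 RBL-2H3 samples were used, 3 each of Ctrl, DNP and PF. The paper names a BGISEQ-500 sequencer, SOAPnuke for read filtering, HISAT2 (2.0.4) for mapping and RSEM (1.2.12) with Bowtie2 (2.2.5) for quantification by the authors. The submitters' processing notes name rn6. The labels name Illumina protocols. For each gene and sample the authors deposited 1 normalized value, here read as FPKM, although the heading names no unit. Of 38490 genes listed per sample, 20484 are blank in all samples and 18006 were used. They stand in 5 different orders and were joined by identifier.

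The 10 genes, the network list and the markers were chosen with earlier results of these data known. Genes that reached 1 FPKM in 3 or more of the 6 samples compared were fitted on log2(FPKM + 1) by limma version 3.58.1 with a trended prior (R version 4.3.3), with Benjamini-Hochberg adjustment over all genes tested and a threshold of 0.05. The test was checked on simulated data. Since the files hold FPKM, no count test was run. The smallest p of a two-sided exact permutation test with 3 samples against 3 is 0.1, so none is given. All 10 genes are named, and of the list those called in a comparison with a log2 fold change of 0.5 or more in size and those below the filter. A part of the list is counted but not reported here by gene. Alternatives were no filter, 1 FPKM in every sample, a pseudocount of 0.1, each sample left out, the replicate number as a block, all 3 groups in one fit, scaling by median ratios or to the mean of the sums, limma without trend, a threshold of 0.01 and, without a test, the PF sample labelled 4 h alone. Promoter sequences are from RefSeq (GRCr8), with Arntl listed as Bmal1.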

Additional observations from a re-analysis of the deposited data

How the results depend on the processing

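Counts of called genes lay within 1.5 times the main count in 89 of 90 alternatives. The exception was the network list in PF against Ctrl, with 13 of its 22 calls at a threshold of 0.01. Leaving out each sample in turn gave 4 to 5 calls among the 10 genes in DNP against Ctrl, 4 to 5 among the 8 genes in PF against DNP and 4 to 6 in PF against Ctrl. In the first 2 comparisons every called clock gene stayed called wherever it was tested, and Arntl could not be tested with 1 FPKM required in every PF sample. Single fold changes stayed the same in 357 alternatives, keeping direction and call or, where untested, shifting by less than the SD within groups. A larger shift of untested values was seen in 12. These were Bhlhe40 and Nr1d1 under both scalings, Nr1d1 with a pseudocount of 0.1 and Cry2 with the PF sample labelled 4 h alone, each in both PF comparisons. A call was gained in 8 and lost in 4. In 13 the direction turned, all close to 0 and not called. These were Cry1 in DNP against Ctrl (-0.095 to 0.045 with 1 sample left out), with log2 fold changes of 0.0012 by median ratios, 0.013 by the mean of the sums, 0.045 without Ctrl replicate 1 or 2, 0.022 without DNP replicate 1 and 0.0014 without DNP replicate 2, Cry2 in PF against DNP (0.025 by median ratios), Dbp in PF against DNP (-0.015 by the mean of the sums and -0.0023 without DNP replicate 3, from there up to 0.14 with 1 sample left out), and Clock in PF against Ctrl (0.055 by median ratios, 0.052 without Ctrl replicate 1, 0.053 without PF replicate 2, -0.054 as the lowest with 1 sample left out, and 0.016 with the PF sample labelled 4 h alone). By limma adjusted p, Dbp passed in DNP against Ctrl with all 3 groups in one fit, and in PF against Ctrl with the mean of the sums (0.0259), and Cry1 missed in PF against Ctrl with no filter (0.0504). The cause of these changes was not tested.

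Replicate numbers are shared by the groups, but same-numbered samples did not deviate together, with correlations of -0.0646, 0.0514 and -0.0739 in DNP against Ctrl and 4.90e-04, -0.0822 and -0.0262 in PF against DNP. In PF against Ctrl they were 0.0908, 0.189 and 0.0830, each sample correlating best with its own number, a hint from the data and not from the design. With the replicate block 2697, 4675 and 6009 genes were called in DNP against Ctrl, PF against DNP and PF against Ctrl, among them 5, 4 and 5 of the clock genes counted. The added call was Dbp in DNP against Ctrl (limma adjusted p = 0.0425). Since the number of reads is not known, a difference such as that of Per2 cannot be placed against counting error.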
